A study of Mus musculus with 121 samples.

Results

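The glycolysis and hypoxia response genes are a fixed list of 38 mouse genes, of 55351 gene symbols in the largest of the 3 count tables used. All 38 were found by symbol in the RNA-seq auxin time series, in the RNA-seq table of untreated lines and in the TT-seq table, where Pkm stands under its older symbol Pkm2 in the table of untreated lines. They comprise 16 glycolytic enzymes, 3 glucose and lactate transporters, 2 pyruvate dehydrogenase kinases, 3 genes of the hypoxia-inducible factor and its oxygen sensors, 2 secreted signals, 3 mitochondrial and mitophagy genes, 4 collagen hydroxylases and 5 other hypoxia-induced genes. The cells were G1E-ER4, a mouse erythroid progenitor line derived from embryonic stem cells that lack Gata1 and carrying a hormone-activated GATA1 fusion, a property shared by all groups. In the YY1-AID subline the transcription factor YY1 carries an auxin-inducible degron, so that adding auxin to the medium has the protein destroyed. Asynchronous YY1-AID cells were sampled by RNA-seq after 0, 4, 24 and 48 h of auxin (3 libraries each) and by TT-seq, which sequences RNA labelled during a short pulse of 4-thiouridine, without auxin and after 4 h of it (3 libraries each). A separate RNA-seq table holds untreated parental cells, the untreated YY1-AID subline and an untreated further YY1-AID line, subline 3, whose titles call it a clone (2 libraries each). The question addressed is how these genes' RNA changed after auxin was added to remove YY1, and how much it already varied between libraries of one group. None of these tables holds auxin-treated cells without the degron, so an effect of auxin itself cannot be told apart from that of YY1 loss. The labels do not say whether the 0 h cells were cultured as long as the treated ones.

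Glycolysis splits glucose into pyruvate, and lactate dehydrogenase turns pyruvate into lactate when it is not burned in mitochondria. Under low oxygen the prolyl hydroxylases of the Egln family no longer mark HIF-1α, the oxygen-regulated subunit of hypoxia-inducible factor, for destruction, and the stabilised factor binds short DNA elements and raises most glycolytic genes together with genes for angiogenesis, mitophagy and collagen modification. Red cell precursors depend on glycolysis as they lose their mitochondria, and Bnip3l is the mitophagy receptor best known for that step.

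The core of the hypoxia response element is a 5-base motif, ACGTG or GCGTG, read on both strands. RefSeq promoter windows (GRCm38.p6, 250 bases before to 50 after each annotated start) were found by symbol for 34 of the 38 genes, all but Slc2a3, Bnip3l, Plod2 and Ndrg1. At least 1 window held the core in 31 of these 34 genes (91.2%), and in 46.7% of all 27025 genes with windows of the same length. Tpi1, Gpi1 and Eno2 had no match in theirs. Counted per window, the shares were 76.5% of 51 and 43.8% of 32851. A second motif, AANATGGC, which follows the recognition sequence of YY1, was present on either strand in 1 of the 34 genes (2.94%, Pfkm) and in 6.96% of all genes. These are matches of letters and not measured binding sites. All genes with windows were not matched to the members in base composition or expression, and both forms of the core hold a CG. The last 160 bases before the start are shown for 4 genes to which the results below return, the factor's own gene (Hif1a), the main glucose transporter (Slc2a1), a mitophagy receptor (Bnip3) and the chief oxygen sensor (Egln1), with each core match in capitals (CACGTG holds a match on either strand).
Hif1a, chr12:73907707-73907866, plus strand: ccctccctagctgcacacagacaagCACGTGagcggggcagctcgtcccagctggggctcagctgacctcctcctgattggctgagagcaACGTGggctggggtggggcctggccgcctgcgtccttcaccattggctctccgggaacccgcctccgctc
Slc2a1, chr4:119108585-119108744, plus strand: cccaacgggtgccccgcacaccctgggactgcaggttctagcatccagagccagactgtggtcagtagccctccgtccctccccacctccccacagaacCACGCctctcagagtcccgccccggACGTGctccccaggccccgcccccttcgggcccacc
Bnip3, chr7:138909507-138909666, minus strand: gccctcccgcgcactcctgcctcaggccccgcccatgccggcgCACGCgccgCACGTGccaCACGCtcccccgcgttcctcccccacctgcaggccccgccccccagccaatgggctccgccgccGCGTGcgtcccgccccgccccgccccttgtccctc
Egln1, chr8:124949255-124949414, minus strand: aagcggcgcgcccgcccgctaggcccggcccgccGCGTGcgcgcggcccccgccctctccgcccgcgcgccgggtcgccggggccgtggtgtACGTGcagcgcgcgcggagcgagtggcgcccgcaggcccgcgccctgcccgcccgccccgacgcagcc
Bnip3 had 5 matches in this stretch, Hif1a 3 and Slc2a1 and Egln1 2 each.

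Total gene counts per library were 25.1 to 26.2 M in the time series, 35.2 to 44.9 M in the untreated lines and 30.2 to 53.5 M in TT-seq. Yy1 mRNA, which the degron does not target, stood between 236.5 and 307.6 CPM in the time series, 172.6 and 212.3 CPM in TT-seq and 48.3 and 113.7 CPM in the untreated lines. It had log2 fold changes of 0.11 ± 0.09, −0.09 ± 0.09 and 0.05 ± 0.09 at 4, 24 and 48 h and of 0.16 ± 0.08 in TT-seq, none past the test (here and below, values after ± are standard errors, and the test is edgeR's quasi-likelihood test adjusted over all genes by Benjamini-Hochberg, with a threshold of 0.05). The erythroid label was met in each library of the time series, with Gata2 between 206.2 and 429.7 CPM (counts scaled to library size) and Klf1 between 103.3 and 173.1 CPM in the time series. Markers of myeloid, lymphoid and embryonic stem cells summed to at most 4.89, 0.32 and 0.97 CPM there, with Cd3e, Pou5f1, Sox2 and Esrrb at 0. The 15 erythroid markers summed to 3406 to 3559 CPM at 0 h, 3448 to 3561 at 4 h, 2787 to 3002 at 24 h and 3202 to 3582 at 48 h, and none of them changed at 4 h in RNA-seq. Of all genes, 4.14% were lower and 3.14% higher there. In TT-seq 2 of 14 tested were lower and none higher, beside 7.09% and 2.11% of all genes. At 24 h 7 of 15 were lower and 4 higher, beside 21.5% of all genes each way. At 48 h the counts were 7 and 5, beside 24.6% and 24.9%. The 5 megakaryocyte markers summed to 65.5 to 87.0 CPM at 0 h, 71.5 to 86.5 at 4 h, 143.3 to 184.6 at 24 h and 285.6 to 311.9 at 48 h. Of the 4 tested, 3 rose at 24 h and at 48 h, beside 21.5% and 24.9% of all genes. The 4 mast cell markers summed to 36.1 to 59.4 CPM at 0 h and 58.8 to 85.6 CPM at 24 h. The part of these cell markers in the member values at 24 and 48 h was not tested. In bulk RNA, fewer cells of a type and less RNA per cell cannot be told apart.

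Before auxin, the 3 libraries of the 0 h group already differed in these genes. A member's level is given here as log2 CPM minus its own mean over the 12 libraries of the time series, for the 35 members that passed the low-count filter. The median over members was 0.19 in 0 h replicate 1, 0.78 in replicate 2 and 0.46 in replicate 3. Replicate 2 was the highest of the 3 for 30 of the 35 members and replicate 1 the lowest for 29, while each 0 h replicate was the highest for 31.9% to 34.4% of all genes tested. The median member spanned 0.62 log2 units between the 0 h libraries, against 0.26 for all genes.

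The genes that spread most at 0 h were hypoxia-induced ones. Ndrg1, a stress-responsive gene, spread widest, but with only 2, 3 and 25 counts in the 3 libraries. Ankrd37, a small ankyrin-repeat gene and HIF target, stood at 5.58, 20.1 and 10.2 CPM in 0 h replicates 1, 2 and 3. Ddit4, which encodes the mTOR inhibitor REDD1, stood at 12.6, 38.9 and 25.4 CPM. Bnip3, whose promoter is shown above, stood at 63.9, 174.6 and 97.7 CPM. In each of the last 3, replicate 2 was the highest and replicate 1 the lowest. The same order held at a smaller size in enzymes such as Ldha, lactate dehydrogenase, with 1292, 1868 and 1444 CPM. Pgk1, an ATP-yielding kinase of the pathway, stood at 720.2, 1095 and 818.0 CPM. Not all enzymes shared this, and Eno2 spanned 1.18 log2 units. Hk1, the constitutive hexokinase, did not take part, with 372.1, 363.2 and 356.9 CPM and a range of 0.06 log2 units.

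**Figure D1:**
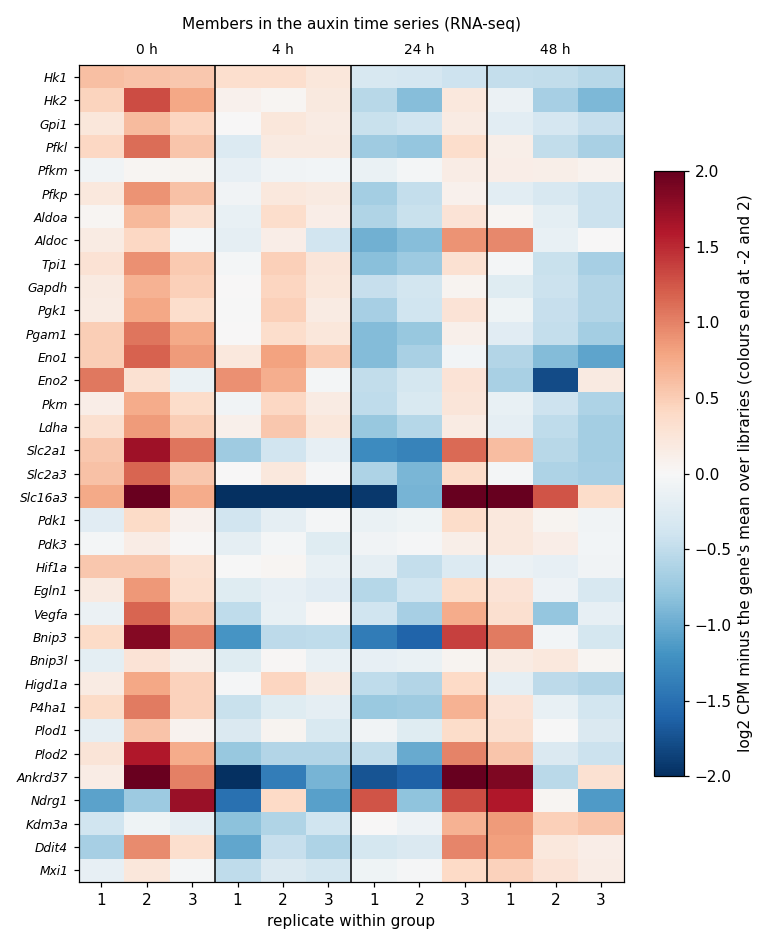
Heat map of the 35 tested members (rows, in order of role) in the 12 libraries of the auxin time series (columns, 3 replicates per time), as log2 CPM minus the gene's mean over the 12 libraries. Columns 0 h replicate 2 and 24 h replicate 3 are warm for most genes beside their neighbours, while Hk1 and Hif1a follow the groups.

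The same alternation ran through the auxin groups. The median level was −0.18, 0.06 and −0.04 in 4 h replicates 1 to 3, −0.51, −0.48 and 0.36 at 24 h, and 0.13, −0.32 and −0.42 at 48 h. Replicate 3 was the highest of the 24 h libraries for 33 of the 35 members, and replicate 1 the highest of the 48 h libraries for 32. All 3 libraries at 4 h thus lay below all 3 at 0 h, whereas 24 h replicate 3 lay above 0 h replicate 1. The median range within a group was 0.42 at 4 h, 0.93 at 24 h and 0.49 at 48 h, against 0.26, 0.28 and 0.27 for all genes. Total counts at 24 h were 25.4, 25.6 and 25.3 M in replicates 1 to 3. The labels name no batch, day or culture state for these libraries, and no within-batch value could be given.

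After the group means were subtracted, most members moved together from library to library. For each member, the Pearson correlation of its residuals with the mean of the other tested members was taken over the 12 libraries, which share one depth, one kit and 1 subline, and it is a description only. It was 0.99 for Bnip3, Tpi1 (triosephosphate isomerase) and Higd1a (a mitochondrial protein of the respiratory chain), and 0.98 for Slc2a1, Pfkl and Pgam1. It was −0.38 for Hk1, 0.05 for Eno2, the neuronal enolase, 0.09 for Hif1a and 0.43 for Ndrg1. The mRNAs of HIF-1α and Hk1 thus did not follow the shared movement of most members. Eno2 and Ndrg1, both at low levels as given elsewhere, spanned 1.96 and 2.73 log2 units between the 48 h libraries. The part of low counts in their correlations was not tested. Among genes whose log2 CPM averaged 3 or more, the 10 outside the list with the most similar residuals were Anxa2 (0.98), Gys1, Atp7b, Matcap1, Pgm1, Fam162a, Itpr3, Prxl2c, Galk1 and Svbp (0.95). Of these, Gys1 makes glycogen, Pgm1 links glycogen to glycolysis, and Galk1 is the kinase of galactose use.

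After 4 h of auxin, 3 of 35 tested members were lower in RNA-seq and none higher, beside 4.14% of all 15157 genes lower and 3.14% higher. In TT-seq, 2 of 33 were lower and none higher, beside 7.09% lower and 2.11% higher of 11218. With TT-seq libraries of the same replicate number taken as pairs, 19 of 33 were lower, beside 25.3% of all genes. TT-seq values and calls in the other paragraphs are without these pairs unless stated. The median log2 fold change of the members was −0.38 in RNA-seq, with 34 of 35 below 0, and that of all genes was 0.01. In TT-seq the member median was −0.16, with 27 of 33 below 0, against 0.02. In RNA-seq all 3 libraries at 4 h lay below all 3 at 0 h for 15 members, and the reverse held for none. Of all genes, 13.7% lay below without overlap and 13.5% above. At an unadjusted p under 0.05, 18 members of 35 were lower at 4 h and none higher, and 21.6% of all genes passed in either direction. Most members moved together between libraries, as described above, so these counts do not rest on independent genes.

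Hif1a was lower in both assays at 4 h. In RNA-seq it stood at 130.7, 130.6 and 111.3 CPM at 0 h and at 89.5, 92.5 and 80.8 CPM at 4 h. In labelled RNA it stood at 171.8, 151.4 and 160.1 CPM without auxin and at 110.8, 99.6 and 105.8 CPM with it. The groups did not overlap in either assay. Hif1a fell by 0.50 ± 0.09 on the log2 scale in RNA-seq (adjusted p = 0.00382) and by 0.61 ± 0.08 in TT-seq (adjusted p = 0.00354).

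Slc2a1, which encodes the glucose transporter GLUT1, was the other member past the threshold in TT-seq without the pairs. Its labelled RNA stood at 41.1, 41.3 and 37.8 CPM without auxin and at 30.4, 29.0 and 33.2 CPM with it, and it fell by 0.38 ± 0.09 on the log2 scale (adjusted p = 0.0342). The call was lost when any 1 of the 6 TT-seq libraries was left out. In RNA-seq it stood at 88.0, 195.3 and 127.0 CPM at 0 h and at 36.9, 46.3 and 54.0 CPM at 4 h. The groups did not overlap there either and the difference was larger, −1.58 ± 0.57, yet it did not pass (adjusted p = 0.115), and its 0 h libraries alone spanned 1.15 log2 units. Slc2a3, the high-affinity transporter GLUT3, had −0.23 ± 0.09 in TT-seq and −0.72 ± 0.28 in RNA-seq. Slc16a3, which exports lactate, was not tested in TT-seq and had 70, 163 and 69 counts at 0 h against 3, 7 and 9 at 4 h in RNA-seq (log2 fold change −4.00 ± 1.16, adjusted p = 0.0545).

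Hk1 was the only glycolytic enzyme past the threshold at 4 h without the pairs, in RNA-seq. It stood at 308.8, 311.1 and 286.7 CPM at 4 h, below the 356.9 to 372.1 CPM at 0 h, and fell by 0.27 ± 0.05 on the log2 scale (adjusted p = 0.00712). Its labelled RNA differed by −0.24 ± 0.08, which did not pass without the pairs (adjusted p = 0.102) and was called lower with them. Of the 16 enzymes 15 had a negative value in RNA-seq and 14 in TT-seq, with medians of −0.29 and −0.16. The lowest in TT-seq was Eno1, the main enolase, at −0.65 ± 0.18 (adjusted p = 0.0582), with 151.6, 111.7 and 125.8 CPM untreated and 102.4, 64.3 and 81.9 CPM after auxin. Eno1 has a near-identical gene copy that is listed separately, and Gapdh, Aldoa, Pgk1, Pgam1, Tpi1, Ldha and Pkm have processed pseudogenes, so the split of their reads is uncertain.

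Plod2, a lysyl hydroxylase that modifies collagen, was the last member past the threshold at 4 h. It stood at 26.4, 67.4 and 37.1 CPM at 0 h and at 13.1, 14.8 and 14.7 CPM at 4 h. Plod2 fell by 1.62 ± 0.46 on the log2 scale, just inside the threshold (adjusted p = 0.049), and over 17 alternative settings its adjusted p ran from 4.22e-08 to 0.193, with 9 past the threshold. It was not called without 0 h replicate 2 or 3, without any 1 of the 4 h libraries or without 48 h replicate 2 or 3. In TT-seq it had −0.44 ± 0.25 without the pairs (adjusted p = 0.331) and was called lower with them. P4ha1, a prolyl hydroxylase of collagen, had −0.94 ± 0.32 in RNA-seq and −0.01 ± 0.15 in TT-seq, and Plod1 had −0.36 ± 0.23 and 0.05 ± 0.24.

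The remaining roles did not pass at 4 h without the pairs. With TT-seq libraries of the same number as pairs, Egln1, Higd1a, Bnip3l and Kdm3a were lower in TT-seq, beside 25.3% of all genes. The values that follow are without the pairs. Egln1, the oxygen sensor PHD2, had −0.71 ± 0.23 in RNA-seq and −0.23 ± 0.11 in TT-seq. Bnip3 had −1.90 ± 0.67 and −0.16 ± 0.20, and its level ran from 21.7 to 34.3 CPM at 4 h against 63.9 to 174.6 CPM at 0 h. Ankrd37 had −2.67 ± 1.11 and −0.40 ± 0.26. In these the RNA-seq value was the larger in size, but the 2 assays used different libraries and the difference between them was not tested. Vegfa, the angiogenic growth factor, had −0.82 ± 0.38 and 0.10 ± 0.10. The kinase genes Pdk1 and Pdk3, whose products shut pyruvate out of the mitochondrial dehydrogenase, had −0.29 ± 0.16 and −0.19 ± 0.08 in RNA-seq and 0.08 ± 0.08 and 0.04 ± 0.12 in TT-seq. Mxi1, a MYC antagonist, had −0.41 ± 0.14 and −0.03 ± 0.11.

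**Figure D2:**
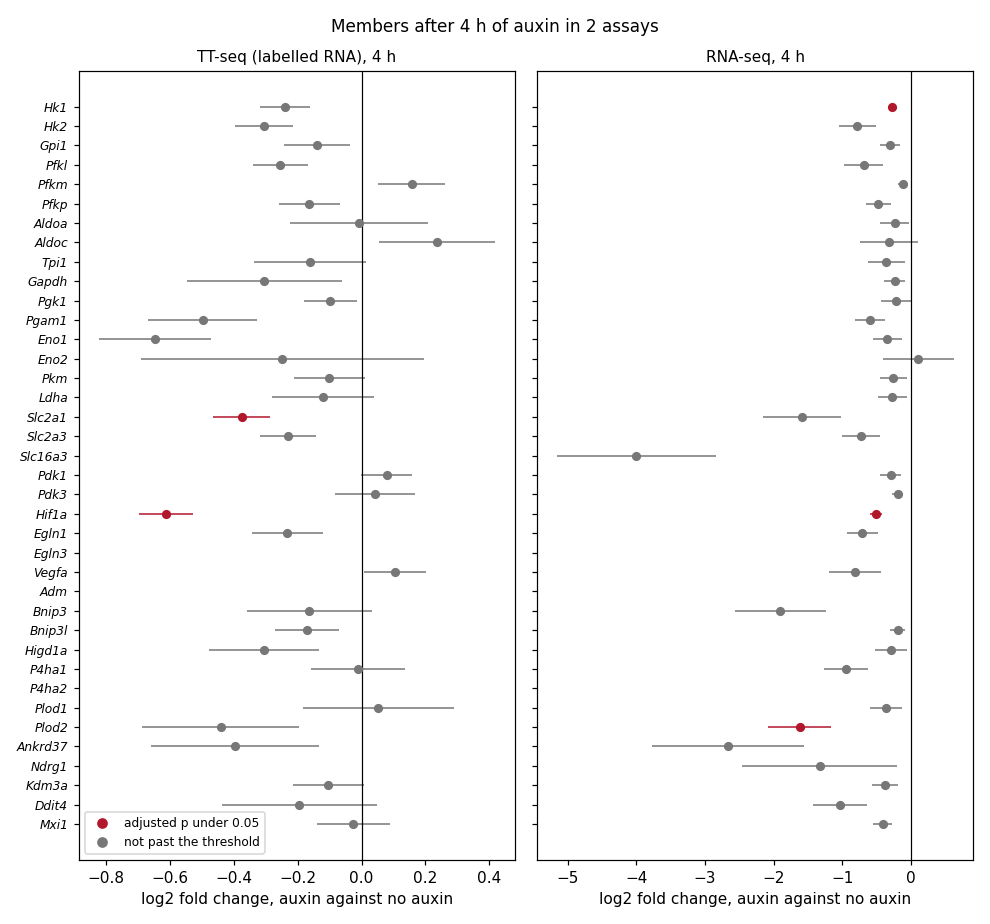
Log2 fold change after 4 h of auxin in TT-seq (left) and RNA-seq (right) for each member, with bars of 1 standard error and red points for adjusted p under 0.05, on axes of different width. Of the points in RNA-seq 34 of 35 lie left of 0, and the red ones are Hk1, Hif1a and Plod2. In TT-seq, fitted without pairs, the red ones are Slc2a1 and Hif1a.

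The count at 4 h differed between fits. With no filter on low counts 20 of 37 members were lower. Of all genes 865 of 30599 were lower then (2.83%), beside 627 of 15157 with the filter (4.14%). Without 24 h replicate 3, a library that is not part of this contrast but shares its estimate of the spread, 13 members of 35 were lower (4.82% of all genes), and 13 of 34 when only the 0 and 4 h libraries were fitted (5.08%). Bnip3, Slc2a1, Slc16a3, Ankrd37, Egln1, Hk2, Pgam1, Slc2a3 and P4ha1 were lower in all 3 of these fits. The fold changes moved little, as for Bnip3 at −1.90 ± 0.67 with all libraries and −1.92 ± 0.38 without that library.

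TT-seq libraries of the same replicate number deviated together, and a fit that keeps the number as a block called 19 of 33 members lower and 1 higher (Pfkm, 0.16 ± 0.06), beside 25.3% of all genes lower and 22.7% higher. The values with the block were −0.66 ± 0.04 for Eno1, −0.61 ± 0.04 for Hif1a, −0.50 ± 0.06 for Pgam1, −0.38 ± 0.05 for Slc2a1, −0.33 ± 0.04 for Gapdh, −0.30 ± 0.04 for Hk2 and −0.24 ± 0.04 for Hk1. Kdm3a, Plod2, Higd1a, Egln1, Bnip3l and a further 6 enzymes and Slc2a3 were also lower. Without the block, Hif1a alone stayed past the threshold when untreated replicate 1 or 3 or auxin replicate 2 or 3 was left out. When spike-in reads (Drosophila) set the library sizes, no member passed without the block, beside 0% of all genes lower and 0.00891% higher. With spike-in sizes and the block 17 members were lower (21.5% of all genes). The ribosomal precursor Rn45s took 22.2% to 38.8% of the TT-seq counts and was highest in both replicates 1, and leaving it out changed no call.

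At 24 h, 17 of 35 members were lower and none higher, beside 21.5% of all genes lower and 21.5% higher. The median member value was −0.65, against 0.03 for all genes. Among the 17 were 13 of the 16 glycolytic enzymes, all but Pfkm (−0.01 ± 0.07), Aldoc (−0.23 ± 0.42) and Eno2 (−0.73 ± 0.54). The others were Slc2a3, Hif1a, Egln1 and Higd1a. The groups did not overlap for 11 members, all lower, against 25.1% of all genes.

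The 6 members with the smallest p at 24 h were Hk1, Hif1a, Eno1, Pgam1, Pfkp and Hk2. Hk1 stood at 196.1, 193.8 and 183.8 CPM and fell by 0.93 ± 0.05 on the log2 scale (adjusted p = 4.62e-08). Hif1a stood at 79.5, 64.7 and 73.8 CPM and fell by 0.77 ± 0.09 (adjusted p = 1.24e-05). The 24 h libraries spanned 0.09 log2 units in Hk1 and 0.30 in Hif1a, beside 0.93 for the median member, and neither gene was highest in 24 h replicate 3.

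Eno1 stood at 391.1, 451.6 and 688.0 CPM at 24 h, against 1004, 1617 and 1290 CPM at 0 h, and fell by 1.35 ± 0.22 (adjusted p = 0.000271). Pgam1, the mutase one step before enolase, stood at 192.7, 208.8 and 378.7 CPM against 492.9, 741.4 and 596.0 CPM, and fell by 1.23 ± 0.22 (adjusted p = 0.000643). Pfkp, a phosphofructokinase of the committed step, stood at 182.2, 208.9 and 310.1 CPM against 337.6, 543.7 and 437.9 CPM (−0.91 ± 0.18, adjusted p = 0.00139). In all 3 the third library was the highest at 24 h but still below every 0 h library. Hk2, the inducible hexokinase, stood at 70.4, 57.4 and 119.4 CPM against 141.4, 256.8 and 176.8 CPM, and fell by 1.22 ± 0.27 (adjusted p = 0.00233).

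Of the other roles, Slc2a3 fell by 1.07 ± 0.28 (adjusted p = 0.00701), Higd1a by 0.65 ± 0.23 (adjusted p = 0.0376) and Egln1 by 0.63 ± 0.23 (adjusted p = 0.0372). Among those that did not pass, Slc2a1 had −1.17 ± 0.56, P4ha1 −0.75 ± 0.32, Vegfa −0.59 ± 0.37 and Pdk1 −0.04 ± 0.16. The 5 other hypoxia-induced genes lay around 0, from −0.10 ± 0.39 for Ddit4 to 0.47 ± 0.18 for Kdm3a, a histone demethylase that needs oxygen.

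The third 24 h library decided many of these values. Bnip3 stood at 18.5 and 16.1 CPM in 24 h replicates 1 and 2 and at 126.2 CPM in replicate 3, Slc2a1 at 25.1, 23.7 and 132.8 CPM, and Ankrd37 at 1.47, 1.58 and 39.0 CPM. Replicate 3 was thus within or above the 0 h range for these genes and the other replicates below it. Without that library 25 of 35 members were lower (19.0% of all genes) and the median was −1.05. Bnip3 then had −2.70 ± 0.47 against −1.06 ± 0.64 with all libraries, Slc2a1 −2.49 ± 0.40 against −1.17 ± 0.56, and Plod2 −1.71 ± 0.37 against −0.88 ± 0.44. Ankrd37 turned from 0.23 ± 0.95 to −2.98 ± 0.72. In the other direction, 10 members were lower without 0 h replicate 2, without 24 h replicate 1 or without 24 h replicate 2, and in each case these were Hk1, Hk2, Gpi1, Pfkp, Gapdh, Pgam1, Eno1, Ldha, Slc2a3 and Hif1a. Hk1 had −0.91 ± 0.06 and Hif1a −0.79 ± 0.10 without 24 h replicate 3, close to their values above.

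**Figure D3:**
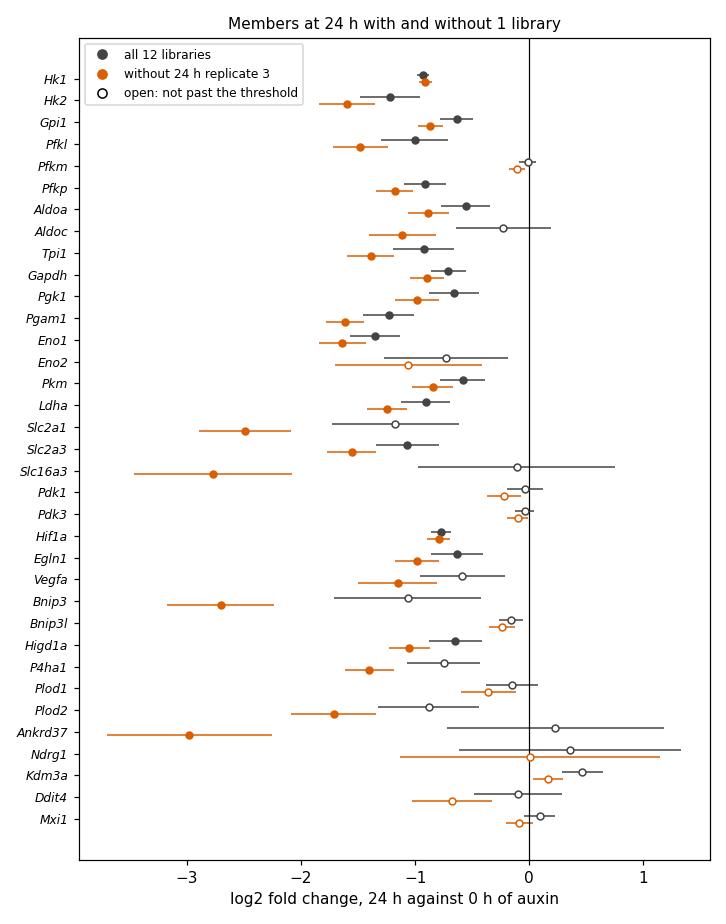
Log2 fold change at 24 h against 0 h for the 35 tested members, with all 12 libraries (grey) and without 24 h replicate 3 (orange); bars are 1 standard error and open points did not pass the threshold. The orange points lie left of the grey ones for most members, by over 2 log2 units for Ankrd37 and Slc16a3, and beside them for Hk1 and Hif1a.

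At 48 h, 15 of 35 members were lower and 1 higher, beside 24.6% and 24.9% of all genes. The median member value was −0.77, against 0.03 for all genes. The 15 were 12 enzymes, Slc2a3, Hif1a and Higd1a. All of these were also called at 24 h, and Aldoa (−0.54 ± 0.21, adjusted p = 0.0503) and Egln1 (−0.52 ± 0.23, adjusted p = 0.074), called at 24 h, did not pass. All time points share the same 0 h libraries, so these 3 comparisons are not independent of each other.

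Hk1 stood at 175.5, 174.6 and 167.6 CPM at 48 h and had fallen by 1.08 ± 0.05 (adjusted p = 9.51e-09). Eno1 stood at 472.0, 389.7 and 341.7 CPM and had fallen by 1.70 ± 0.22 (adjusted p = 3.01e-05). Hif1a stood at 82.4, 79.9 and 85.4 CPM and had fallen by 0.59 ± 0.09 (adjusted p = 7.58e-05). For all 3 the groups did not overlap, and Eno1 showed the same high replicate 1 as the other members. Gapdh, whose product makes the substrate of Pgk1, fell by 0.88 ± 0.16 (adjusted p = 0.000353), Pgam1 by 1.24 ± 0.22 (adjusted p = 0.000428) and Gpi1, glucose-6-phosphate isomerase, by 0.77 ± 0.14 (adjusted p = 0.000559).

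Kdm3a was the member that rose. It stood at 79.2, 97.8 and 91.5 CPM at 0 h, 59.2, 68.9 and 78.9 CPM at 4 h, 104.6, 96.9 and 169.0 CPM at 24 h and 187.3, 145.0 and 152.4 CPM at 48 h. Its log2 fold change was 0.85 ± 0.18 at 48 h (adjusted p = 0.00148), 0.47 ± 0.18 at 24 h (adjusted p = 0.0528) and −0.38 ± 0.18 at 4 h (adjusted p = 0.255). In the 48 h group it followed the other members, with replicate 1 the highest.

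The roles without a call at 48 h had these values. Slc2a1 had −1.26 ± 0.56, Bnip3 −0.85 ± 0.64 and Plod2 −0.96 ± 0.44, with 48 h replicate 1 the highest library in each. Pdk1 and Pdk3 had −0.03 ± 0.16 and 0.05 ± 0.08, Bnip3l 0.06 ± 0.11, Vegfa −0.76 ± 0.37 and Pfkm 0.10 ± 0.07. The groups did not overlap for 17 members that were lower and 2 that were higher, Kdm3a and Pfkm, against 28.1% and 29.2% of all genes.

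Between 48 and 24 h no member passed, beside 2.84% of all genes lower and 3.03% higher. At an unadjusted p under 0.05 there were 2, Hk1 (−0.15 ± 0.05) and Kdm3a (0.39 ± 0.18), and DESeq2 called none. In the other roles the values were −0.09 ± 0.56 for Slc2a1, 0.09 ± 0.08 for Pdk3, 0.18 ± 0.09 for Hif1a, −0.17 ± 0.38 for Vegfa, 0.22 ± 0.11 for Bnip3l and −0.08 ± 0.45 for Plod2. Without 24 h replicate 3, 4 members were higher at 48 h than at 24 h, Kdm3a (0.68 ± 0.13), Bnip3 (1.84 ± 0.46), Slc16a3 (3.17 ± 0.69) and Aldoc (1.26 ± 0.29), beside 2.26% of all genes.

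**Figure D4:**
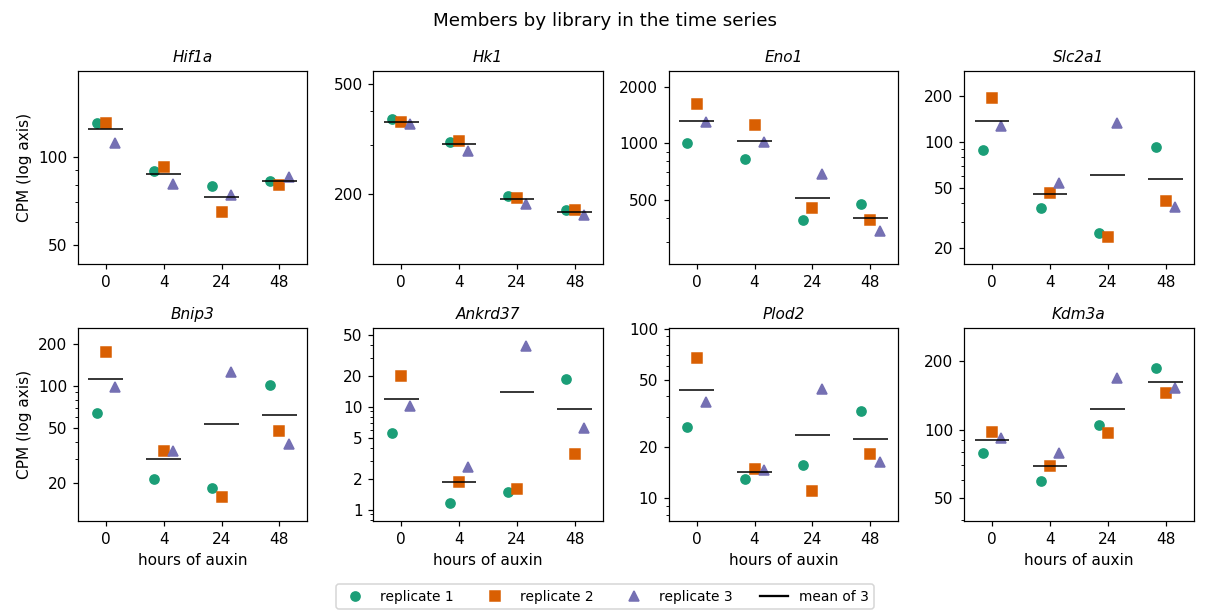
CPM of 8 members on a log axis against hours of auxin (0, 4, 24 and 48 h), with a symbol per replicate number and a line at the mean of 3 libraries. Hif1a and Hk1 fall with little spread between replicates, while Slc2a1, Bnip3, Ankrd37 and Plod2 are spread by 24 h replicate 3. Kdm3a is highest at 48 h. Libraries sharing a number between times were not treated as linked.

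Genes of the same pathway outside the list were grouped in 4 further lists. Of 15 tested other glycolysis genes, 1 was lower in TT-seq, 1 higher and 1 lower at 4 h, 5 and 5 at 24 h and 5 and 6 at 48 h. Of all genes, 7.09% were lower in TT-seq, 3.14% were higher and 4.14% lower at 4 h, 21.5% each at 24 h and 24.9% and 24.6% at 48 h. Bpgm, which makes the 2,3-bisphosphoglycerate of red cells, was the one in TT-seq (−0.40 ± 0.09). Pgm2 fell by 0.26 ± 0.07 at 4 h and by 0.87 ± 0.07 at 24 h, and Adpgk, an ADP-dependent glucokinase, rose by 0.24 ± 0.07 at 4 h. Pklr, the red cell pyruvate kinase, fell by 0.82 ± 0.11 at 24 h and fell by 1.90 ± 0.12 at 48 h. Pfkfb1 and Pfkfb2, whose products set the level of fructose 2,6-bisphosphate, rose by 1.06 ± 0.12 and 0.49 ± 0.07 at 24 h.

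Among the regulators of hypoxia-inducible factor, 3 of 18 tested were lower in TT-seq and none higher, 4 of 19 lower and 1 higher at 4 h, 7 and 3 at 24 h and 8 and 3 at 48 h. The shares of all genes lower in these were 7.09%, 4.14%, 21.5% and 24.6%, and those higher 2.11%, 3.14%, 21.5% and 24.9%. Crebbp, a coactivator, fell by 0.71 ± 0.08 in TT-seq, Siah1a, a ubiquitin ligase, by 0.63 ± 0.08 and Cul2, the scaffold of the von Hippel-Lindau ligase, by 0.43 ± 0.09. Siah1a and Cul2 were also lower in RNA-seq at 4 h (−0.69 ± 0.13 and −0.27 ± 0.06), with Os9 (−0.30 ± 0.07) and Hsp90ab1 (−0.20 ± 0.05). Egln2, the oxygen sensor PHD1, rose by 0.41 ± 0.06 at 4 h, and Arnt, the constant partner of HIF-1α, rose by 0.58 ± 0.07 at 24 h and 0.77 ± 0.07 at 48 h. Cited2, which competes with HIF-1α for CBP and p300, rose by 0.75 ± 0.06 at 48 h.

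Of 17 other hypoxia-induced targets tested, 2 were lower in TT-seq and none changed at 4 h in RNA-seq, where 14 of 17 values were below 0. At 24 h 7 were lower and 1 higher, beside 21.5% of all genes each way, and at 48 h 7 and 4, beside 24.6% and 24.9%. In TT-seq 7.09% of all genes were lower. Gbe1, the glycogen branching enzyme, and Narf fell in TT-seq by 1.14 ± 0.16 and 0.45 ± 0.11. Ero1a, an endoplasmic reticulum oxidase, fell by 0.80 ± 0.18 at 24 h and Mif by 0.64 ± 0.16. Wsb1 rose by 0.69 ± 0.10 at 24 h and 0.83 ± 0.10 at 48 h, and Kdm4c and Rragd rose by 0.45 ± 0.07 and 1.86 ± 0.34 at 48 h.

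Of 11 tested genes of pyruvate oxidation, Pdhx, the E3-binding subunit of the pyruvate dehydrogenase complex, was the only one past the threshold in TT-seq (−0.80 ± 0.10) and at 4 h (−0.41 ± 0.09). It was lower in both, beside 7.09% and 4.14% of all genes. At 24 h 6 of the 11 were lower and 1 higher, beside 21.5% of all genes each way, and at 48 h 5 and 2, beside 24.6% and 24.9%. The catalytic subunits Pdhb, Dlat and Pdha1 fell at 24 h by 0.57 ± 0.08, 0.51 ± 0.07 and 0.39 ± 0.06.

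In the untreated lines no member passed in any of the 3 comparisons without a replicate block, over 34 tested. Of all 10892 genes 0% passed in either line against parental, and 0.0826% were higher and 0% lower in subline 3 against the YY1-AID subline. At an unadjusted p under 0.05 there was 1 member lower in each line against parental and 0 between the lines, of 557, 534 and 572 genes, and DESeq2 called no member. With 2 libraries a group and no replicate block, differences within their spread were not detectable here. That spread holds the replicate order shared by the 3 lines, described below. With a block, Pdk1 was higher than parental in both lines and Bnip3l in subline 3, beside 1.63% and 4.2% of all genes. However, 2 pairs do not show that the numbers pair the libraries. Data were simulated for the YY1-AID subline against parental with the spread estimated without a block. In them the test called 0% of log2 changes of 1 and 45% of those of 2. Erythroid markers summed to 3001 to 3185 CPM in parental cells, 4002 to 4691 CPM in the YY1-AID subline and 3892 to 5101 CPM in subline 3, and their part in the values below was not tested.

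Eno2 was the member with that unadjusted p in both lines. It stood at 1.04 and 0.77 CPM in parental cells, 0.20 and 0.23 CPM in the YY1-AID subline and 0.42 and 0.22 CPM in subline 3, with log2 fold changes of −2.09 ± 0.53 (adjusted p = 0.465) and −1.52 ± 0.51 (adjusted p = 0.894). Higd1a stood at 109.6 and 114.4 CPM in parental cells, 156.6 and 121.3 CPM in the YY1-AID subline and 91.6 and 112.6 CPM in subline 3, and differed by −0.44 ± 0.21 between the latter lines. Plod1 stood at 5.02 and 8.15 CPM, 3.72 and 4.74 CPM and 3.61 and 8.86 CPM in the same order. None of these differences exceeded what the test allows for the spread of 2 libraries.

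Ldha stood at 1675 and 2031 CPM in parental cells, 2285 and 2154 CPM in the YY1-AID subline and 1499 and 1962 CPM in subline 3. Pfkm, the muscle-type phosphofructokinase, stood at 76.5 and 78.2, 79.7 and 89.1, and 64.9 and 70.4 CPM in that order, without overlap between lines, and subline 3 differed from the YY1-AID subline by −0.32 ± 0.17. Aldoc, a brain-type aldolase, stood at 12.6 and 21.4, 20.5 and 22.6, and 18.0 and 29.8 CPM. Bnip3l stood at 137.4 and 264.8, 193.0 and 322.3, and 222.6 and 355.7 CPM, so its second library was the higher in every line. For the other roles, the YY1-AID subline against parental gave 0.01 ± 0.83 for Slc2a1, 0.50 ± 0.51 for Pdk1, 0.11 ± 0.55 for Hif1a, 0.40 ± 0.59 for Vegfa and −0.27 ± 0.86 for Ankrd37.

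That order was shared. Replicate 2 was the higher library for 32 of 34 members in parental cells, 29 in the YY1-AID subline and 33 in subline 3, against 48.4% to 50.1% of all genes. Bnip3 stood at 21.6 and 149.1 CPM in parental cells, 43.8 and 153.5 CPM in the YY1-AID subline and 39.8 and 191.4 CPM in subline 3. Plod2 stood at 11.9 and 67.9, 12.3 and 67.7, and 10.99 and 64.6 CPM. In both genes the second libraries of the 3 lines were closer to each other than to the first library of their own line. The labels do not say what a replicate number stands for.

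**Figure D5:**
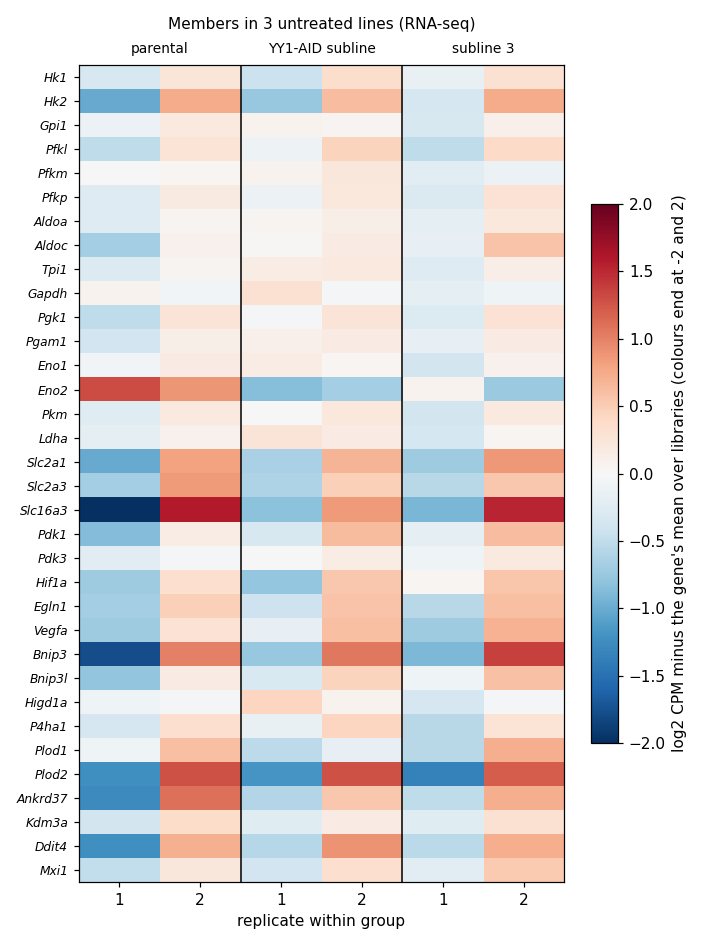
Heat map of the 34 tested members (rows) in the 6 libraries of the untreated lines (columns, 2 replicates per line), as log2 CPM minus the gene's mean over the 6 libraries. The second column of each line is warmer than the first for most genes, by the widest margin for Bnip3, Plod2 and Slc16a3, and no line stands apart.

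In TT-seq the members spread about as widely as other genes. The median member spanned 0.28 log2 units between the 3 untreated libraries, and all genes also 0.28. Between the auxin libraries both values were 0.32. An order between the libraries was still present, since untreated replicate 1 was the highest of its group for 17 of 33 members and untreated replicate 3 the lowest for 16, against 39.7% and 21.9% of all genes. Bnip3 stood at 14.6, 19.0 and 11.1 CPM untreated and at 13.1, 15.2 and 11.7 CPM after auxin. Median levels were 0.16, 0.10 and −0.02 in the untreated libraries and −0.02, −0.22 and −0.10 in the auxin libraries.

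Besides Slc16a3 in TT-seq, 4 members were too low to test in at least 1 table. Egln3, an inducible oxygen sensor, had no counts in RNA-seq of either table and at most 3 in a TT-seq library. Adm, the vasodilator adrenomedullin, had at most 2 counts in a library. P4ha2 had at most 6 counts, and Ndrg1, tested in the time series with 1 to 25 counts (−1.33 ± 1.13 at 4 h), had at most 7 in the other tables. No statement on the direction of Egln3, Adm and P4ha2 could be made at this depth, nor on that of Ndrg1 outside the time series. In the time series Ndrg1 is counted among the tested members, on these few counts.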

How the data were processed

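The count tables used were those of the RNA-seq auxin time series, RNA-seq of untreated lines and TT-seq. The RNA-seq counts were deposited by the authors as whole numbers per gene symbol, and the submitters' processing notes name Salmon 0.13.1, Trim Galore 0.6.10, STAR, SAMtools and the builds mm9 and dm6 without saying which step used which. For TT-seq, no source used here gives the strand setting of the counting. TT-seq rows that name no gene and Drosophila spike-in rows were left out of library sizes and tests. Of the rows that name no gene, the one for reads in no annotated feature held 17.2% to 22.2% of counts.

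Each table was fitted over all its groups with edgeR 4.0.16 in R 4.3.3 (TMM factors, filterByExpr, quasi-likelihood test, Benjamini-Hochberg adjustment over all genes, threshold 0.05, no replicate block). CPM use TMM library sizes, log2 CPM a prior count of 2, and each standard error is the log2 fold change divided by the square root of F. The fits were tested on simulated data, with 100 genes each changed by 1 and by 2 log2 units. Of these, 73% and 84% were called at 4 h in RNA-seq and 80% and 97% in TT-seq. For the untreated YY1-AID subline against parental, 0% and 45% were called. Alternatives were DESeq2 1.42.0, RLE factors, no filter on low counts, a replicate block, leaving out each library, fitting only the groups compared, spike-in library sizes, those with the block, and leaving out Rn45s. TT-seq libraries with the same number correlated in their deviations from the group means in every pair (0.402 to 0.657), so the numbers were taken as pairs there from the data, not the labels. In the time series these correlations ran from −0.069 to 0.103, beside −0.101 to 0.087 for different numbers, and nothing was paired. Between 0 and 4 h they were 0.053 to 0.103 for the same number and −0.101 to 0.004 for different numbers.

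The labels do not say whether replicates are separate cultures, so p-values measure the spread between these libraries, which may be technical. The members and lists were chosen with earlier results of these data known, and named genes are, in each comparison, all called members if 6 or fewer, otherwise the 6 with the smallest p, and at least 1 member per role. Of each other list up to 4 called genes with the smallest p are named. Further members and Hsp90ab1 were named after their values were seen. Promoter sequences are from RefSeq (GRCm38.p6), read as names and sequence only and not joined to the files' coordinates. Figures were drawn with matplotlib 3.10.9.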

Additional observations from a re-analysis of the deposited data

How the results depend on the processing

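Counts of members are given here with the share of all genes called in the same direction in brackets. For DESeq2 the brackets give the number of genes called in that direction, of those with an adjusted p. With no filter the shares are of 30599 genes, beside 15157 in the main fit, so the 2 are not on one base. At 4 h in RNA-seq the count of lower members (3) was 5 with DESeq2 (1028 of 12417 genes). It was 20 with no filter on low counts (2.83%) and 13 with only the groups compared (5.08%). With 1 library left out it was 2 to 13 (2.54% to 4.82%). At 24 h the lower count, 17 with all libraries, was 14 with DESeq2 (3426 of 18085 genes) and 22 with no filter (10.9%). It was 14 with only the groups compared (21.6%) and 10 to 25 when 1 library was left out (18.7% to 21.5%). At 48 h the lower count was 15 with all libraries, 15 with DESeq2 (3811 of 18085 genes) and 22 with no filter (12.4%). It was 20 with only the groups compared (24.9%) and 15 to 21 when 1 library was left out (21.5% to 25.0%). Members higher at 24 h were 1 with no filter (9.79%) and 0 to 1 when 1 library was left out (Kdm3a), and at 48 h 1 to 2. Between 48 and 24 h, 1 member was higher with no filter (Kdm3a, 1.96% of all genes) and 0 to 4 when 1 library was left out. In TT-seq the lower count (2) was 5 with DESeq2 (981 of 11281 genes) and 0 with spike-in library sizes (0%). It was 17 with those and the block (21.5%) and 1 to 2 when 1 library was left out (3.28% to 6.19%).

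With the replicate block, TT-seq gave 19 lower and 1 higher member (25.3% and 22.7%), Plod2 was no longer called at 4 h (2 lower, 5.49%), Egln1 no longer at 24 h (16 lower, 23.0%), 48 against 24 h gave 1 lower (Hk1, 4.06%), and the untreated YY1-AID subline and subline 3 had 1 and 2 members higher than parental cells (Pdk1 at 0.51 ± 0.10 and 0.56 ± 0.10, Bnip3l in subline 3 at 0.56 ± 0.10), beside 1.63% and 4.2% of all genes. Same-numbered untreated-line libraries correlated by 0.628 to 0.738, but 2 pairs do not show that the numbers pair them.

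Leaving out 1 library moved the median log2 fold change of the members from −1.05 to −0.47 at 24 h, −0.98 to −0.52 at 48 h, −0.23 to 0.29 between 48 and 24 h, and −0.33 to 0.47 for subline 3 against parental. Ankrd37 at 24 h (0.23) ran from −2.98 without 24 h replicate 3 to 0.82 without 0 h replicate 2. Beyond the construction of each setting (fewer libraries or genes), the cause was not tested. Hk1 and Hif1a passed at 4, 24 and 48 h under all 17 alternatives run. Depth limits the 5 members too low to test in at least 1 table.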
